A study of Mus musculus with 4 samples.

Results

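The 10 genes described here encode transcription factors of trophectoderm and trophoblast: Cdx2, Eomes, Elf5, Gata2, Gata3, Tead4, Tfap2a, Tfap2c, Hand1 and Ascl2. They were taken as a list of gene names, drawn up with earlier results of these data known, and all 10 were found among the 22138 genes of the table; Tfap2a and Tfap2c stand there under their older symbols, Tcfap2a and Tcfap2c, and were matched by Ensembl identifier. RNA came from TT2, an established mouse embryonic stem (ES) cell line of C57BL/6xCBA background labelled female and kept in feeder-free culture with serum and LIF. The control siRNA group (n = 2 libraries) and the Hnrnpk siRNA group (n = 2 libraries) share, per the labels, everything but the siRNA: 100 nM at the first transfection, 50 nM of the same siRNA 24 hours later, and harvest about 72 hours after that. Both groups are a single cell line, and the labels do not say whether replicates were separate cultures, so p-values may measure technical spread only. The series asks which genes are silenced through hnRNP K, which binds RNA and DNA, together with SETDB1, a histone H3 lysine 9 methyltransferase. Here that question is put to factors of a lineage that ES cells do not normally enter.

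Trophectoderm is the outer epithelium of the blastocyst and gives rise to the trophoblast of the placenta. TEAD4, with its coactivator YAP when Hippo signalling is low, and Notch signalling switch on Cdx2 and Gata3 in outer cells, and CDX2, EOMES, ELF5 and TFAP2C maintain trophoblast stem cells. In ES cells POU5F1 and SETDB1 restrain this programme, and the Elf5 promoter is known as a DNA methylation barrier against it.

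Promoter sequences show how unlike these genes are at their starts. RefSeq windows (GRCm38.p6) were found for 7 of the 10 genes: Cdx2, Eomes, Elf5, Gata2, Gata3, Tfap2a and Ascl2. Tead4, Tfap2c and Hand1 had no entry. The 250 bases before the start are shown for Gata3, the factor with the largest change, for Cdx2, the best-known trophectoderm factor, and for the upstream start of Elf5, which moved the other way. Each is written 5′ to 3′ on the strand of the gene, with CpG dinucleotides, the sites of DNA methylation, in capitals. The Gata3 window is chr2:9878601-9878850 (minus strand), the Cdx2 window chr5:147307250-147307499 (minus strand) and the Elf5 window chr2:103411848-103412097 (plus strand).
Gata3: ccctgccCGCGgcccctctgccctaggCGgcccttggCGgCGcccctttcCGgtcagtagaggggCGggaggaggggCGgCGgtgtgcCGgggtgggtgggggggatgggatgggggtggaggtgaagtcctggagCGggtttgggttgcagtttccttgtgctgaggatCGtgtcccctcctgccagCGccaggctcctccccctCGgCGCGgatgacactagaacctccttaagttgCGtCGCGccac
Cdx2: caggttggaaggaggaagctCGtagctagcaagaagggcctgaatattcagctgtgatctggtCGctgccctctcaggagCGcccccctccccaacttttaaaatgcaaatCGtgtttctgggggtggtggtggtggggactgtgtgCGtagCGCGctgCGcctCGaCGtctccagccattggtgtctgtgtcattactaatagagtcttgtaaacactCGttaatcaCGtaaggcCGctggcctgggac
Elf5: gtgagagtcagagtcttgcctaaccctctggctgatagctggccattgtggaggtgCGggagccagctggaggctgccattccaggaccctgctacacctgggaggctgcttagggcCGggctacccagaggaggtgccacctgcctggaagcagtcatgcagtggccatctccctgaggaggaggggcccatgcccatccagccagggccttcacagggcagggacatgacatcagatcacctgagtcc

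The Gata3 window held 19 CpG dinucleotides, the Cdx2 window 13 and the upstream Elf5 window 2. Across 32807 promoter windows of the same length the median was 6, and 18.8% of them held fewer than that Elf5 window. The second Elf5 start had 8, the same as Eomes, and both Tfap2a starts had 10. Ascl2 had 19, and the Gata2 starts had 22 and 24. All windows but the upstream Elf5 one were thus above the median of all windows. In GENCODE M21 the upstream Elf5 window lies inside the gene (103411688 to 103450989), as does the Gata3 window (9857078 to 9890034). Bases after the upstream Elf5 start were found in no GENCODE transcript of the gene. Bases after the second Elf5 start were found, so the upstream Elf5 window rests on the RefSeq start alone. Those after the Eomes start were not found either, but the Eomes window ends at 118478188 and GENCODE starts the gene later, at 118478212. The Eomes bases compared can thus lie partly before the GENCODE start.

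**Figure D1:**
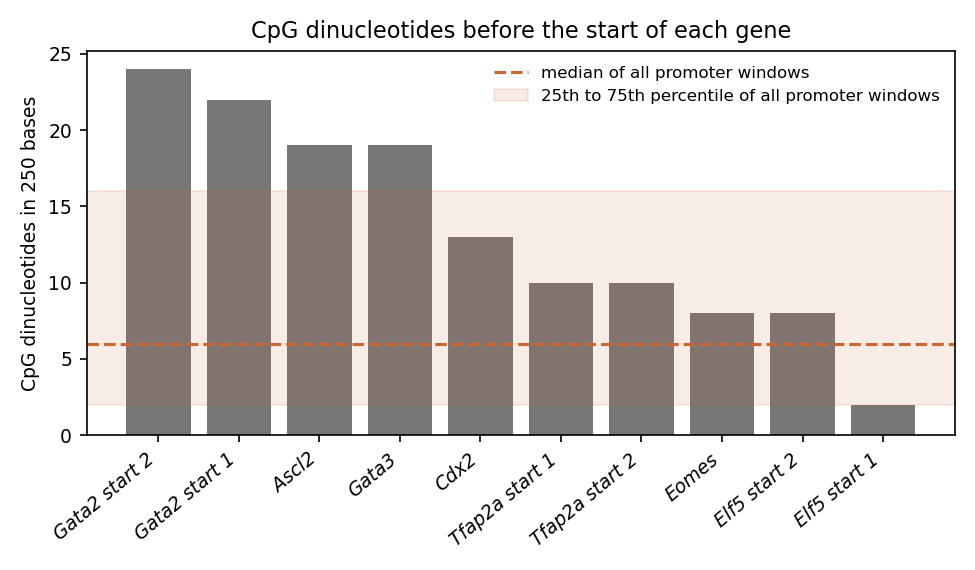
CpG dinucleotides (y axis, count) in the 250 bases before each start in the RefSeq table (bars, 1 per start), with the median (dashed line, 6) and the 25th to 75th percentile (shaded, 2 to 16) of all 32807 windows. The upstream Elf5 start has 2 and the Gata2 starts 22 and 24.

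Short motifs were searched in the same 10 windows on both strands. The POU octamer ATGCAAAT lay in the Cdx2 window, 147 to 140 bases before the start, and in no other; 1.60% of all windows held it. The C-rich CT element CCCTCCCC, a kind of sequence that hnRNP K is known to bind, was in 3 of the 10 windows (Cdx2, the upstream Gata2 start and, on the other strand, Ascl2) against 9.68% of all. The AP-2 motif GCCNNNGGC, which reads the same on both strands, was also in 3 windows, against 13.7% of all: it occurred 3 times in Gata3 and once each in Cdx2 and the second Gata2 start. The TEAD motif GGAATG lay in the upstream Elf5 window and the second Gata2 window (12.6% of all windows), and the E-box CAGCTG in Cdx2 and the upstream Elf5 window (13%). The GATA motifs AGATAA (9.99% of all) and TGATAA (7.95%) were in none of the 10. No match overlapped another motif searched. These are matches of letters only.

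Values are RPKM, reads scaled by the authors to transcript length and library size, so levels can be compared between genes. Changes were tested on log2(RPKM + 0.5), which understates the change of low genes, with limma across the 12486 genes whose mean was at least 0.5 RPKM, and a gene was called where its p, adjusted by Benjamini-Hochberg, was under 0.05. By the smallest steps between low values, 1 RPKM over 1 kilobase was worth 124.2, 121.9, 110.7 and 109.5 counted units (control replicates 1 and 2, Hnrnpk siRNA replicates 1 and 2); whether a unit was a read or a read pair was not settled. Hnrnpk itself stood at 236 and 226 RPKM after control siRNA and at 68.0 and 70.5 RPKM after Hnrnpk siRNA (log2 change -1.73, SE 0.0629, adjusted p = 6.59e-08 by limma). The ES cell factors Pou5f1, Sox2 and Nanog were above 145 RPKM in every library; these are defining factors of the labelled cell type. A change in these bulk samples can come from more or fewer cells expressing a gene or from more or less RNA per cell, which cannot be told apart.

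Gata3, Eomes, Hand1, Tead4 and Gata2 were called higher by at least 2-fold, meaning a log2 change of at least 1. Ascl2 was called higher by less, and Tfap2c was called lower. So 6 of the 7 factors tested were called higher, where 32.2% of all genes tested were, and 1 was called lower, where 35% were; at 2-fold and higher it was 5 of 7 against 4%, and 0 of 7 were at 2-fold and lower, against 4.52%. Calls in either direction were common, at 67.2% of all genes tested. All 7 were above 0.5 RPKM on average in both groups, so none was tested only because of the group in which it was high. Their median log2 change was 1.38, against -0.015 over all genes tested. Cdx2, Tfap2a and Elf5 had means below 0.5 RPKM and are described from a fit without that filter. In all 10 factors the groups did not overlap, with 8 higher (39% of the 18814 genes above 0 in any library) and 2 lower (37.5%).

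**Figure D2:**
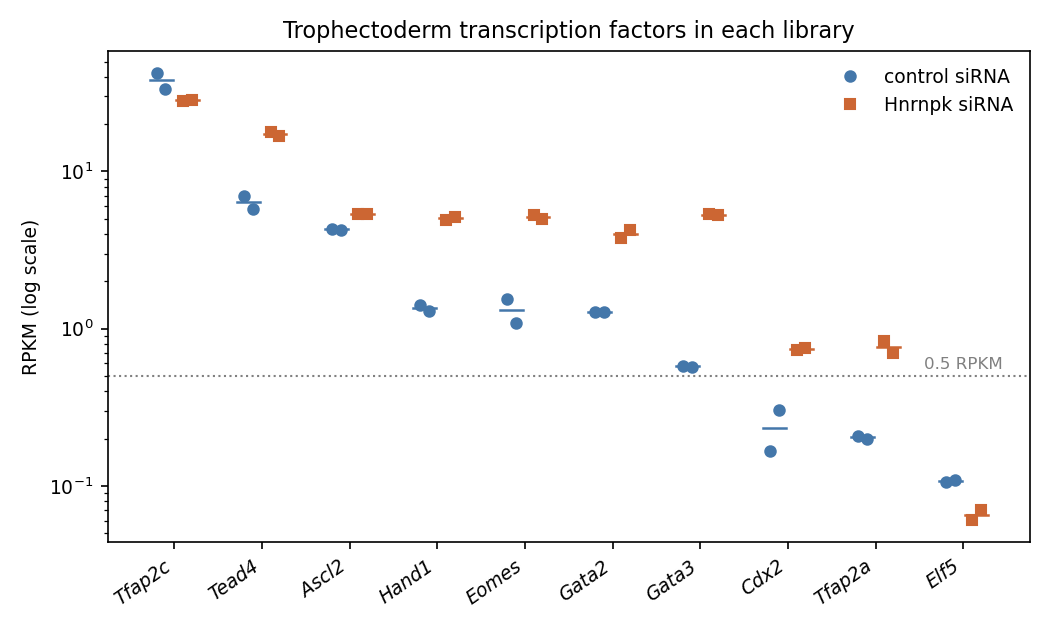
RPKM (y axis, log scale) of the 10 factors in each library, ordered by their mean after control siRNA; circles are control siRNA libraries, squares Hnrnpk siRNA libraries, short lines group means, and the dotted line the filter of 0.5 RPKM. The groups are apart for every factor, lower after Hnrnpk siRNA for Tfap2c and Elf5 and higher for the other 8.

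Tead4 encodes the TEA-domain factor that acts earliest in the trophectoderm programme (chromosome 6, 128224288 to 128300823, minus strand; this and the following gene positions are GENCODE M21 on GRCm38). It was listed at 6.96 and 5.77 RPKM after control siRNA and at 17.7 and 16.9 RPKM after Hnrnpk siRNA. Both Hnrnpk siRNA libraries were well above both controls, and the group means were 6.37 ± 0.839 and 17.3 ± 0.599 RPKM (SD, n = 2 each). The change on the log2 scale was 1.38 (SE 0.0907, adjusted p = 1.63e-06 by limma).

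Cdx2 encodes the caudal-type homeobox factor that defines trophectoderm (chromosome 5, 147300805 to 147307270, minus strand). Its level was low throughout: 0.166 and 0.303 RPKM after control siRNA and 0.731 and 0.749 RPKM after Hnrnpk siRNA. With 2.261 kilobases of exon these values correspond to about 46, 84, 183 and 186 units. The control libraries were apart from each other, and both were below the Hnrnpk siRNA libraries. The ratio of the group means was 3.16. Without the filter the log2 change was 0.76 (SE 0.0998, adjusted p = 0.00444 by limma), where 25.3% of 18814 genes were called higher. In that fit the call was lost when either Hnrnpk siRNA library was left out, with a log2 change of 0.77 without replicate 1 (adjusted p = 0.0887 by limma) and 0.75 without replicate 2 (0.0924). In the same unfiltered fits Eomes (0.0658 and 0.0648), Tead4 (0.0549 and 0.0557), Tfap2c (0.244 and 0.232), Ascl2 (0.127 and 0.132) and Elf5 were not called either, nor Gata2 without replicate 2 (0.0502). With the filter, Ascl2 was the only one of the 7 tested factors to lose its call when a library was left out.

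Eomes, a T-box factor needed for trophoblast proliferation and also expressed in the primitive streak (chromosome 9, 118478212 to 118486132, plus strand), was listed at 1.54 and 1.09 RPKM after control siRNA and at 5.32 and 4.99 RPKM after Hnrnpk siRNA. The lower Hnrnpk siRNA library was above the higher control library. Its means were 1.32 ± 0.324 and 5.16 ± 0.230 RPKM (SD, n = 2 each), with a log2 change of 1.65 (SE 0.120, adjusted p = 2.84e-06 by limma).

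Elf5, an ETS factor that reinforces Cdx2 and Eomes in trophoblast stem cells (chromosome 2, 103411688 to 103450989, plus strand), did not follow them. It had the lowest level of the 10 in every library, at 0.105 and 0.109 RPKM after control siRNA and 0.0608 and 0.0705 RPKM after Hnrnpk siRNA, or about 77, 78, 40 and 45 units over 5.877 kilobases of exon. Both Hnrnpk siRNA libraries were below both controls, with a ratio of means of 0.614. Without the filter the log2 change was -0.10 (SE 0.0201, adjusted p = 0.0142 by limma), where 26% of genes were called lower. That call was lost when any 1 library was left out (adjusted p from 0.0545 to 0.0610) and without the mean-variance trend (0.0594).

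Gata3, a zinc finger factor that acts beside Cdx2 in trophectoderm (chromosome 2, 9857078 to 9890034, minus strand), had the largest change of the 10. It was listed at 0.581 and 0.568 RPKM after control siRNA and at 5.32 and 5.28 RPKM after Hnrnpk siRNA. Replicates were nearly equal within each group while the group means, 0.575 ± 0.00927 and 5.30 ± 0.0297 RPKM (SD, n = 2 each), stood 9.23-fold apart. Its log2 change of 2.43 (SE 0.0859, adjusted p = 6.04e-08 by limma) was the 36th largest rise among the 12486 genes tested. The size depended on the constant added, from 2.0 with 1 RPKM to 3.0 with 0.1 RPKM.

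Gata2, its close relative, which is used in trophoblast giant cells and in blood (chromosome 6, 88193891 to 88207032, plus strand), was listed at 1.27 RPKM in each control and at 3.79 and 4.22 RPKM after Hnrnpk siRNA. The Hnrnpk siRNA libraries were above both controls, with a ratio of means of 3.15. The change on the log2 scale was 1.35 (SE 0.0901, adjusted p = 1.80e-06 by limma).

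The AP-2 factors went in opposite directions. Tfap2a (AP-2 alpha, also a factor of surface ectoderm and neural crest; chromosome 13, 40715302 to 40738376, minus strand) was listed at 0.208 and 0.199 RPKM after control siRNA and at 0.830 and 0.701 RPKM after Hnrnpk siRNA, about 127, 119, 450 and 376 units. The groups were well apart. Without the filter its log2 change was 0.85 (SE 0.0649, adjusted p = 0.00134 by limma), and with 0.1 RPKM added in place of 0.5 it was 1.51.

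Tfap2c (AP-2 gamma, a trophoblast factor that ES cells and germ cell precursors express as well; chromosome 2, 172549593 to 172558622, plus strand) was by far the highest of the 10 factors in every library. It was listed at 42.2 and 33.7 RPKM after control siRNA and at 28.2 and 28.6 RPKM after Hnrnpk siRNA. The controls differed from each other by more than the lower control did from the Hnrnpk siRNA libraries. The change on the log2 scale was -0.40 (SE 0.0955, adjusted p = 0.00419 by limma). Its size rested on which control was used: without control replicate 1 it was -0.24 and without control replicate 2 it was -0.56. Each of these 2 fits holds 1 control library, so the spread between controls does not enter it.

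Hand1 and Ascl2 are basic helix-loop-helix factors of later trophoblast, HAND1 promoting giant cells and ASCL2 maintaining the precursors of spongiotrophoblast. Hand1, which is also a mesoderm gene (chromosome 11, 57828705 to 57832818, minus strand), was listed at 1.40 and 1.30 RPKM after control siRNA and at 4.93 and 5.14 RPKM after Hnrnpk siRNA. The groups were far apart relative to their spread, with a ratio of means of 3.73 and a log2 change of 1.58 (SE 0.0862, adjusted p = 6.06e-07 by limma). Ascl2, an imprinted gene (chromosome 7, 142966829 to 142969264, minus strand), was listed at 4.29 and 4.25 RPKM after control siRNA and at 5.36 and 5.39 RPKM after Hnrnpk siRNA. Its ratio of means was 1.26, the smallest rise of the 10, with a log2 change of 0.30 (SE 0.0771, adjusted p = 0.00655 by limma). The Ascl2 call was lost without Hnrnpk siRNA replicate 1 (adjusted p = 0.0600) and without Hnrnpk siRNA replicate 2 (0.0669), and the change was 0.50 with GC trends removed.

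**Figure D3:**
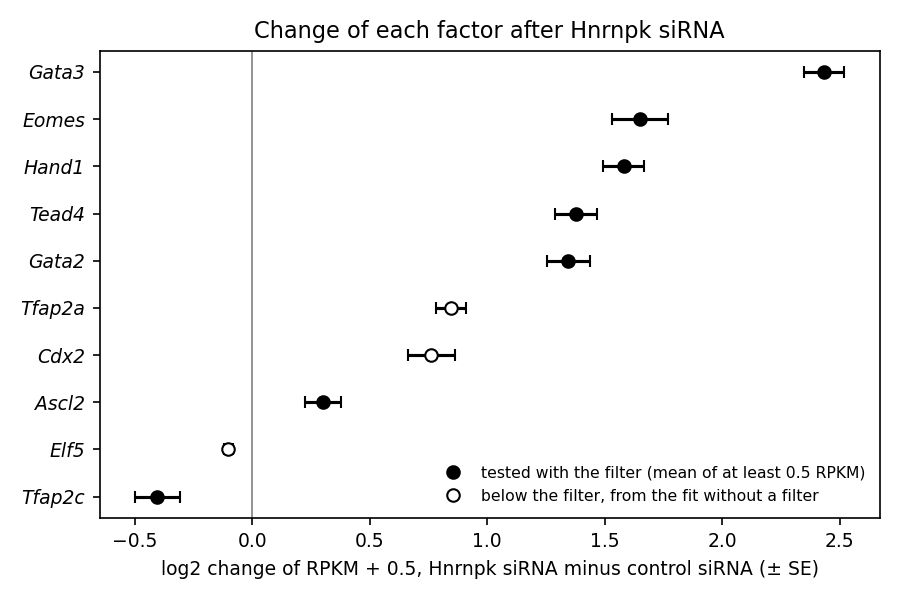
Log2 change of RPKM + 0.5 (x axis, Hnrnpk siRNA minus control siRNA) of each factor; points are estimates and bars ± SE (n = 2 libraries per group), filled where the gene passed the filter and open where the estimate comes from the fit without a filter. Gata3 is farthest to the right at 2.43 and Tfap2c farthest to the left at -0.40.

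The order of levels changed with the siRNA. After control siRNA the order by mean was Tfap2c, Tead4, Ascl2, Hand1, Eomes, Gata2, Gata3, Cdx2, Tfap2a and Elf5. Hand1 and Eomes, Eomes and Gata2, and Cdx2 and Tfap2a overlapped between libraries as neighbours in that order. After Hnrnpk siRNA Gata3 moved from the seventh to the fourth place, where it overlapped Eomes, Eomes overlapped Hand1, and Tfap2a overlapped Cdx2. Gata3 was then at 5.30 RPKM, close to Ascl2 at 5.37 RPKM, while Cdx2 and Tfap2a remained below 1 RPKM and Elf5 below 0.1 RPKM. Among all 22138 genes of the table, Gata3 went from the 45th to the 65th percentile of mean level and Cdx2 from the 39.8th to the 46.9th.

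What the 10 genes share in the annotation is limited. All are annotated as protein coding, their longest transcripts have 48.7% to 59.6% GC, and Elf5, Gata3 and Tfap2c lie on chromosome 2. Their longest protein-coding transcripts were compared with all GENCODE transcripts at 95% identity over at least 100 bases. Of the 10, Eomes, Gata3 and Tfap2a shared such a stretch, each with an antisense gene at the same locus. By exon position Eomes overlaps an antisense gene over 118 bases, Gata3 over 155 and Tfap2a over up to 380, and Gata3 also shares 77 exonic bases with 9230102O04Rik on its own strand. The sources used here do not say whether counting used strand, so reads of a factor and its overlapping gene cannot be told apart there.

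Paralogs of the factors were compared next, family by family; of 24 listed, 22 were matched and 13 tested, with 5 called higher (Gata6, Cdx1, Gata4, Tead1 and Gata1) and 5 lower (Tbx21, Tead2, Tfap2e, Elf4 and Tead3), beside 32.2% and 35% of all genes tested. Their median log2 change was 0.13. The count of higher genes was 3 without Hnrnpk siRNA replicate 1, and that of lower genes was 3 with quantile normalization and 2 without Hnrnpk siRNA replicate 2 or with GC trends removed. The calls of Tead1 (adjusted p = 0.0556 by limma) and Gata1 (0.0555) were lost without Hnrnpk siRNA replicate 1. Tfap2e was not called without Hnrnpk siRNA replicate 2 (0.0669) or with GC trends removed (0.164). The calls of Elf4 and Tead3 were the least stable: Elf4 was not called without the filter (0.0973), with quantile normalization (0.0565), with GC trends removed (0.0505), or without control replicate 1 (0.0786) or Hnrnpk siRNA replicate 2 (0.216). Tead3 was not called with quantile normalization (0.0844), with GC trends removed (0.222), or without Hnrnpk siRNA replicate 1 (0.191) or 2 (0.0880). Gata6, Cdx1, Gata4, Tbx21 and Tead2 were called under every alternative in which they were tested. The families whose members diverged most are described below, chosen after their values were seen.

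In the GATA family 5 of 6 genes had both Hnrnpk siRNA libraries above both controls, as did 39% of the 18814 genes above 0 in any library. Gata6, a primitive endoderm factor, was listed at 0.721 and 0.565 RPKM after control siRNA and at 13.7 and 14.1 RPKM after Hnrnpk siRNA (log2 change 3.66, SE 0.0928, adjusted p = 2.04e-08 by limma), a larger change than that of Gata3. Gata4 had a log2 change of 0.87 (adjusted p = 0.000226). Gata3 made up 11.9% and 13.2% of the summed GATA RPKM in control libraries and 20.1% and 19.0% in Hnrnpk siRNA libraries, and Gata2 26.0% and 29.6% against 14.3% and 15.2%. Gata6 alone took 51.7% and 50.9% after Hnrnpk siRNA.

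In the TEAD family Tead4 was called higher while Tead2, the most abundant member in control libraries, was called lower. Tead2 was listed at 29.5 and 28.2 RPKM after control siRNA and at 20.9 and 21.3 RPKM after Hnrnpk siRNA (log2 change -0.44, SE 0.0635, adjusted p = 0.000200 by limma). Tead4 accounted for 11.9% and 10.6% of summed TEAD RPKM in control libraries and for 26.0% and 26.9% in Hnrnpk siRNA libraries.

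Eomes and Tbx21 (T-bet), members of the TBR1 subfamily of T-box genes, exchanged places. Tbx21 was listed at 1.76 and 1.45 RPKM after control siRNA and at 0.617 and 0.693 RPKM after Hnrnpk siRNA (log2 change -0.86, SE 0.105, adjusted p = 6.87e-05 by limma). Eomes went from 46.4% and 42.5% of the subfamily's summed RPKM to 88.5% and 87.0%. Cdx1, the closest relative of Cdx2 measured above 1 RPKM, was listed at 2.22 and 2.61 RPKM after control siRNA and at 7.41 and 7.67 RPKM after Hnrnpk siRNA (log2 change 1.47, SE 0.0908, adjusted p = 1.17e-06 by limma). Cdx2 was 6.49% to 9.81% of summed CDX RPKM in the 4 libraries.

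**Figure D4:**
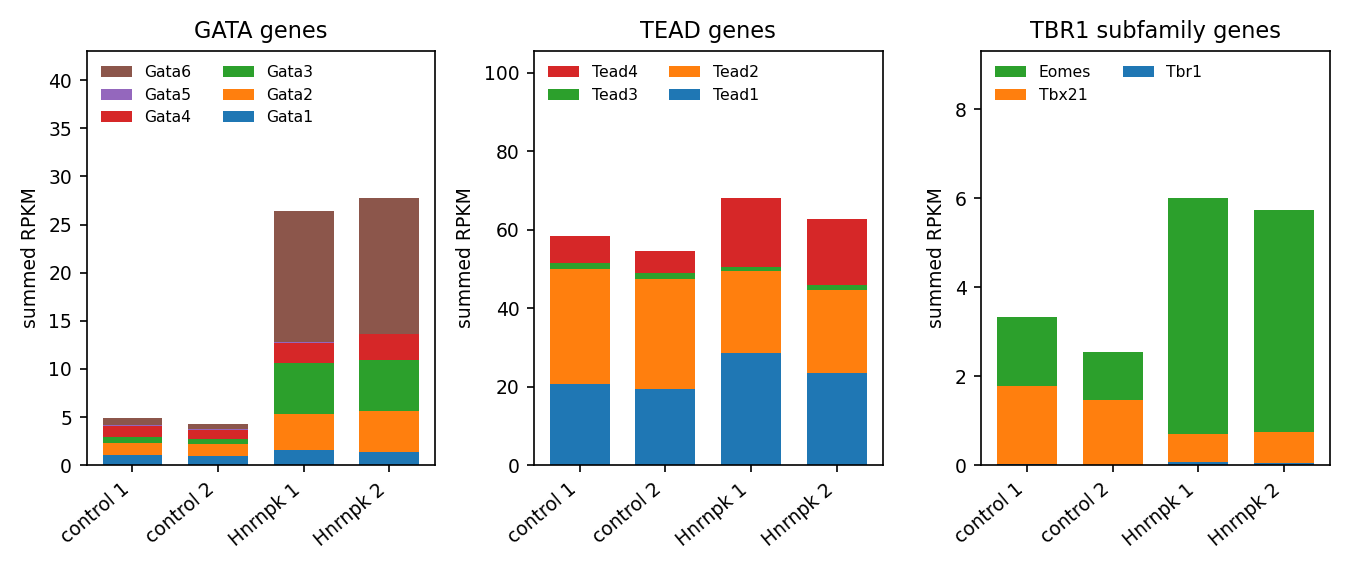
Summed RPKM (y axis) of the GATA, TEAD and TBR1 subfamily genes in each library (x axis; control 1 and 2, Hnrnpk 1 and 2 are the siRNA and replicate), with each gene a coloured segment. Gata6, Gata3 and Gata2 fill most of the higher GATA bars, Tead4 grows while Tead2 shrinks, and Eomes replaces Tbx21.

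The wider trophectoderm and trophoblast stem cell list, 17 genes other than the 10 factors, had 10 of its 15 tested genes called higher and 2 lower. Beside this stand 32.2% and 35% of all genes tested, and the list had a median log2 change of 0.85. The weakest call was that of Klf5 (log2 change 0.16, adjusted p = 0.0484 by limma). It was lost without the filter (0.0639), with quantile normalization (0.549) and without the mean-variance trend (0.0769). The Klf5 call was also lost when any 1 library was left out (log2 changes from 0.14 to 0.17). Lgals3, a galectin, was listed at 2.72 and 3.25 RPKM after control siRNA and at 16.4 and 16.5 RPKM after Hnrnpk siRNA (log2 change 2.29). Plet1, a surface protein of trophoblast progenitors, had a log2 change of 1.74, Id2, an inhibitor of basic helix-loop-helix factors, 2.11, the fatty acid binding protein Fabp3 2.14 and the homeobox gene Msx2 1.41; by limma, all 5 had an adjusted p of 1.58e-06 or less. The trophectoderm keratins Krt8 and Krt18 were called higher with log2 changes of 0.85 and 0.87. The list was not uniform: Cdh3 (P-cadherin) and Itga7 were called lower, with log2 changes of -0.85 and -0.51, and Fgfr2, the receptor through which FGF4 sustains trophoblast stem cells, was at 5.21 and 4.96 RPKM against 5.49 and 5.50 RPKM and was not called. Krt7 was below 0.3 RPKM in every library.

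Genes of differentiated placental trophoblast were mostly low. Of 21 matched, 11 were below 0.5 RPKM in every library, and 5 were listed at 0 in all 4: the placental lactogen and prolactin-family genes Prl3d1, Prl3b1 and Prl2c2, and the spongiotrophoblast genes Tpbpa and Tpbpb. Of the 10 tested, 4 were called higher and 3 lower, shares near those of all genes tested (32.2% and 35%), with a median log2 change of 0.088. Gcm1, a factor of syncytiotrophoblast, was listed at 0.860 and 0.726 RPKM after control siRNA and at 2.80 and 3.21 RPKM after Hnrnpk siRNA (log2 change 1.44). Dlx3, a homeobox gene of the labyrinth, had a log2 change of 1.14 and the protease gene Mmp9 0.85. The imprinted genes Phlda2 and Peg10 were called lower, each with a log2 change of -0.76. By limma, the adjusted p of these 5 genes was 7.06e-05 or less.

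Of 15 Hippo and Notch genes that feed trophectoderm, 4 were called higher and 4 lower, no larger a share in either direction than the 32.2% and 35% of all genes tested, and the median log2 change was -0.0084. Amotl2, an angiomotin that binds YAP and is also induced by it, was listed at 10.5 and 12.7 RPKM after control siRNA and at 26.9 and 25.3 RPKM after Hnrnpk siRNA (log2 change 1.14). The kinase gene Lats2 had a log2 change of 0.67, Rbpj, the DNA-binding partner of Notch, 0.47 and Vgll4, a TEAD-binding competitor of YAP, 0.41. Nf2, an upstream activator of Hippo kinases, was called lower at -0.65, as were Notch1 (-0.39), Notch2 (-0.26) and Cdh1 (-0.20); by limma, the 5 genes from Amotl2 to Nf2 had an adjusted p of 0.00218 or less. Yap1, the coactivator of TEAD4, was at 21.9 and 22.6 RPKM against 24.3 and 25.1 RPKM and was not called. The list had 2 genes called lower without Hnrnpk siRNA replicate 2, where Notch2 (adjusted p = 0.133 by limma) and Cdh1 (0.0965) lost their calls; Notch2 was not called with GC trends removed either (0.0716), nor Cdh1 without control replicate 1 (0.128).

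Of 17 factors known to restrain trophectoderm genes in ES cells, 4 were called higher and 5 lower, again no more than the 32.2% and 35% of all genes tested. The largest falls were those of the maintenance DNA methyltransferase gene Dnmt1 and of Uhrf1, whose product brings DNMT1 to newly replicated DNA. Dnmt1 was listed at 108 and 106 RPKM after control siRNA and at 70.1 and 66.4 RPKM after Hnrnpk siRNA (log2 change -0.65, SE 0.0623, adjusted p = 1.62e-05 by limma), and Uhrf1 at 124 and 126 RPKM against 83.3 and 79.8 RPKM (-0.61, SE 0.0615, adjusted p = 2.01e-05). The groups were apart for both genes. Mbd3, of the NuRD corepressor, was also called lower (-0.40), as was the Polycomb methyltransferase gene Ezh2 (-0.18), whose call was lost without control replicate 2 or either Hnrnpk siRNA library (adjusted p from 0.0595 to 0.0995), and Mbd3 was not called with GC trends removed (0.176). The Polycomb genes Eed (0.48), Suz12 (0.32) and Rnf2 (0.31) were called higher. Pou5f1 was listed at 287 and 301 RPKM after control siRNA and at 245 and 286 RPKM after Hnrnpk siRNA, and Setdb1 at 35.2 and 36.1 RPKM against 33.3 and 32.4 RPKM; neither was called (log2 changes -0.15 and -0.12, limma adjusted p = 0.137 and 0.114). Trim28, a corepressor that recruits SETDB1, was not called either (0.074, adjusted p = 0.445). Sox2 was called lower (-0.53, adjusted p = 0.000337) and Nanog higher (0.82, adjusted p = 6.56e-06). Pou5f1 was called lower with quantile-normalized values (adjusted p = 0.0109) or when Hnrnpk siRNA replicate 2 was dropped (0.0188), and Trim28 higher with GC trends removed (0.0206); with GC trends removed 7 genes of the list were called higher.

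**Figure D5:**
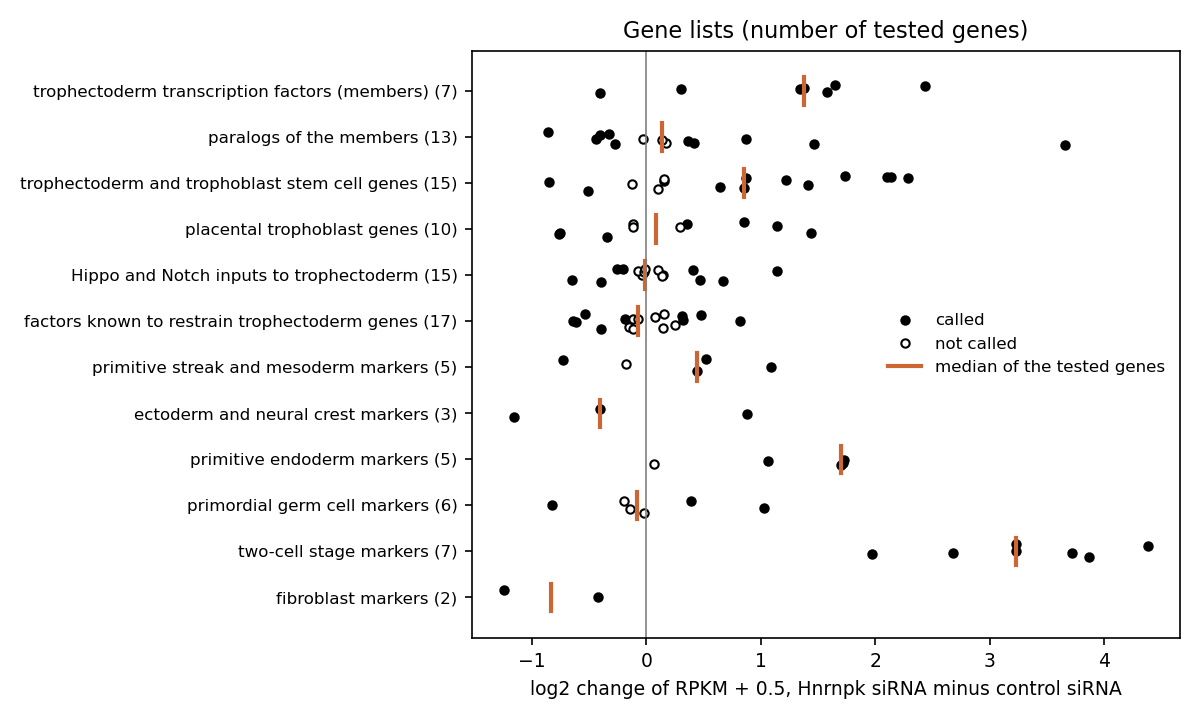
Log2 change of RPKM + 0.5 (x axis, Hnrnpk siRNA minus control siRNA) of every tested gene in each list (rows, with the number tested); filled points were called, open points were not, and the bar is the median. The 10 factors' row (7 tested) has its median at 1.38 and the Hippo and Notch row at -0.0084. All 7 genes of the two-cell stage row were tested only through the Hnrnpk siRNA group. The filter thus fixed the direction of their change, but not its size (1.97 to 4.38).

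Since Gata2, Gata3, Hand1, Eomes and Tfap2a are also used in other lineages, markers of those lineages were read in the same libraries. Primitive endoderm markers summed to 20.2 and 19.6 RPKM over 9 genes after control siRNA and to 47.6 and 48.5 RPKM after Hnrnpk siRNA. Of 5 tested, 4 were called higher, where 32.2% of all genes tested were: Sox7, Pdgfra, Col4a1 (log2 change 1.72) and Dab2 (1.70). Lama1, the largest part of the control sums, was at 9.81 and 9.15 RPKM against 9.99 and 9.94 RPKM. It was not called (0.069, adjusted p = 0.423 by limma). Col4a1, the largest part of the Hnrnpk siRNA sums, was at 6.75 and 6.62 RPKM against 22.5 and 23.8 RPKM. None of the 9 was at 0 in all libraries, but 3 were below 0.5 RPKM in every library. Without the filter 7 of the 9 were called higher, where 25.3% of 18814 genes were. Two-cell stage markers summed to 0.801 and 0.751 RPKM over 8 genes after control siRNA and to 42.6 and 50.7 RPKM after Hnrnpk siRNA, with Gm5662 at 0.186 and 13.9 RPKM and Gm8300 at 0.108 and 7.54 RPKM on average. The 12 primitive streak and mesoderm markers summed to 5.07 and 5.15 RPKM against 5.94 and 5.59 RPKM. Of 5 tested, 3 were called higher (Wnt3, 1.09, T, 0.52, and Gsc, 0.44) and 1 lower (Mixl1, -0.73). Among all genes tested 32.2% were called higher and 35% lower. Without the filter 5 of these markers were called higher and 3 lower, and T was not called (adjusted p = 0.114 by limma). The 8 ectoderm and neural crest markers summed to 3.41 and 2.80 RPKM against 2.67 and 2.92 RPKM. Of 3 tested, 1 was called higher (Msx1, 0.88) and 2 lower (Sox10, -1.15, and Pax6, -0.41). Without the filter 4 of the 8 were called higher, beside the same 25.3%, and Sox10 and Pax6 were again called lower. Those added were Dlx5, Krt5 and Pax3, all below 0.5 RPKM in every library. Primordial germ cell markers (6 genes) summed to 128 and 117 RPKM against 92.3 and 95.2 RPKM. All 6 were tested, with 2 called higher (Nanos3, 1.03, and Prdm14, 0.39) and 1 lower (Dppa3, -0.82). Dppa3, the largest part of the germ cell sums, was at 74.2 and 70.5 RPKM against 39.2 and 42.2 RPKM. Fibroblast markers (7 genes) summed to 9.46 and 8.02 RPKM against 4.08 and 4.32 RPKM. Both tested genes, Thy1 (-1.24) and Col1a1 (-0.42), were called lower, as were 35% of all genes tested. The other 5 were below 0.5 RPKM in every library, so the sums are almost wholly those of Thy1 and Col1a1. Of these low genes Lum was higher in both Hnrnpk siRNA libraries. Wnt3, Gsc, Msx1, Sox10 and Pdgfra, like the two-cell stage genes tested, averaged below 0.5 RPKM in 1 group and were tested only through the other. The part of any of these cell states in the changes of the 10 factors was not tested.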

How the data were processed

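RNA-seq libraries of 4 samples were used. Per the labels' protocols the libraries were for paired-end Illumina sequencing, and the RNA is called rRNA-depleted in one place and poly(A)-selected in another. The deposited values are RPKM per gene, made by the authors, with 1 column per library; the submitters' processing notes name BWA, SAMtools and the mm9 build, and the counter, annotation and treatment of multiply mapping reads are not stated there. Of 157 listed genes 152 were matched. Log2(RPKM + 0.5) was compared with limma 3.58.1 in R 4.3.3 (mean-variance trend, two-sided moderated test, 7.47 prior degrees of freedom); the procedure was checked on simulated data. An exact permutation test of 1 gene, at n = 2 against 2, cannot go below p = 0.333, so every call rests on the variance limma pools across genes. Transcript comparison used BLAST 2.17.0. Gene positions come from GENCODE M21 (GRCm38), not from the authors' build. Alternatives were the constant (0.1 or 1), the filter (none, or a mean of at least 1 RPKM), median-ratio scaling, quantile normalization, no trend, the replicate number as a block, and leaving out each library. Removal of GC trends, and the other choices combined with no filter for Cdx2, Tfap2a and Elf5, were added after seeing the data. The 10 factors and all lists were chosen with earlier results of these data known. By rule the text names all 10 factors, Hnrnpk, Pou5f1, Sox2, Nanog, Setdb1 and Trim28, up to 5 called genes of lowest adjusted p in each trophoblast, paralog and Hippo-Notch list and up to 2 in each list of other cell types; further genes were named after their values were seen.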

Additional observations from a re-analysis of the deposited data

How the results depend on the processing

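The number of factors called higher was 6 under 8 alternatives, 8 without the filter on low values, and 5 to 6 when 1 library was left out. The number called lower was 1 under all alternatives except the fit without the filter, where it was 2. The added calls were Cdx2 and Tfap2a (higher) and Elf5 (lower). No log2 change of a listed gene reversed with a call under any alternative run; over all listed genes and alternatives, 43 values lost and 34 gained a call, and 21 list counts moved by over 1.5 times. The Hnrnpk call held under every alternative. The scalings moved the median of all genes by less than 0.1 on the log2 scale. Deviations of same-numbered libraries correlated at r = 0.027 across genes, so no shift shared by number was seen. This cannot say whether same-numbered libraries were prepared together, and the labels state no pairing. With the replicate block 6 factors were again called higher and 1 lower. All genes called went from 4025 to 4162 higher and from 4371 to 4460 lower. The block lowered adjusted p by limma, for Tead4 from 1.63e-06 to 7.44e-14 and for Tfap2c from 0.00419 to 3.73e-05. The blocked fit has fewer residual degrees of freedom per gene and leans more on the variance pooled across genes. Its lower p therefore does not show a pairing. Cdx2, Tfap2a and Elf5, with means below 0.5 RPKM over the 4 libraries, rest on about 40 to 450 units per library. The size of their log2 changes rests on the constant added.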

Other observations

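Several low genes of differentiation differed between the control libraries, chosen here after their values were seen. Esx1, a trophoblast homeobox gene, was listed at 9.13 and 5.10 RPKM in control replicates 1 and 2. After Hnrnpk siRNA it was at 8.46 and 8.53 RPKM, so the groups overlapped. With all 4 libraries it was not called (log2 change 0.29, adjusted p = 0.204 by limma). Without control replicate 1 the log2 change was 0.68, in a fit that holds no spread between controls. T (brachyury) was at 0.361 and 0.846 RPKM in the controls and at 1.07 and 1.03 RPKM after Hnrnpk siRNA, and Sox10 at 1.70 and 1.0 RPKM in the controls and at 0.328 and 0.306 RPKM after Hnrnpk siRNA. Among the 10 factors, the controls differed in the same way for Cdx2, which was higher in control replicate 2, and for Eomes, Tead4 and Tfap2c, which were higher in control replicate 1.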
